A study of Homo sapiens with 48 samples.

Results

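The genes described here encode the enzymes that build cholesterol and fatty acids and the proteins that set their transcription. Of 31 genes listed, 28 had a probe set that carries only their symbol and are the members measured, out of 19775 genes measured in all. Each member was read from its brightest probe set, chosen by the mean over all 48 arrays. The members comprise 7 of 7 genes of the mevalonate steps, 9 of 11 of the later sterol steps, 4 of 4 SREBP regulators, the sterol carrier STARD4 and 7 of 8 genes of fatty acid synthesis. FDFT1, CYP51A1 and FADS1 are the 3 that were not measured, the first because no probe set was listed for it and the others because their probe sets also carry a second gene symbol.

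Cholesterol is made in the cytosol and endoplasmic reticulum from acetyl-CoA by way of mevalonate, isopentenyl diphosphate, squalene and lanosterol. SREBP-2, the product of SREBF2, is a membrane-bound transcription factor that SCAP escorts to the Golgi for cleavage when sterols are scarce, while INSIG1 and INSIG2 hold SCAP back when sterols are plentiful. Most genes of the sterol pathway, and INSIG1 itself, are SREBP targets, and fatty acid synthesis is driven largely by the related SREBP-1c, which insulin signalling is known to raise.

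T47D-YA cells, a T47D breast cancer variant without IRS adaptor proteins, were studied as stable sublines that express human IRS-1 (clones IRS-1 #10 and IRS-1 #20) or human IRS-2 (clones IRS-2 #1 and IRS-2 #6), the adaptors that carry signals from the IGF-I receptor. Every culture was first held for 24 h in serum-free medium (SFM), and then received IGF-I, or SFM with fibronectin alone, which the labels call SFM. RNA was taken 4 h or 24 h later and hybridised to Affymetrix HG-U133 Plus 2.0 arrays. The 4 clones, 2 treatments and 2 times make 16 groups of 3 arrays, and IRS-null cells were not analysed here. Each clone is a single subline, so a clone and its isoform cannot be told apart within 1 clone. Nothing says that the 3 arrays of a group came from separate cultures, and p-values therefore measure only the spread between these arrays, which may be technical.

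The deposited values are GC-RMA summaries on a log2 scale, and 54613 probe sets were tested after 62 control probe sets were left out. Array medians lay between 7.39 and 7.51, and arrays of 1 group correlated at 0.994 to 0.998. Of 11 luminal epithelial markers, KRT8, KRT18, KRT19, EPCAM, CDH1, GATA3, XBP1 and FOXA1 had group means from 11.18 to 14.89, while ESR1 lay at 9.76 to 10.80, TFF3 at 8.18 to 10.59 and TFF1 at 7.04 to 8.99. Of 7 fibroblast markers, COL1A1 was brightest, at 9.49 to 10.82, DCN lay at 8.35 to 8.64, and COL1A2, COL3A1, PDGFRB, FAP and LUM lay between 4.36 and 7.80. The 5 leukocyte markers measured ranged from TYROBP, at 5.23 to 5.53, to CD3E, at 7.91 to 8.37. The part of these marker levels in the results was not tested. The 3 IRS1 probe sets did not read higher in the clones labelled IRS-1, and 1 of them read 5.25 to 6.42 there against 7.65 to 8.98 in the clones labelled IRS-2. The 2 IRS2 probe sets overlapped between the isoforms and did not read higher in the clones labelled IRS-2. For 1 of them the overlap was with IRS-1 #20 only. It read 7.18 to 7.59 in IRS-1 #10 and 6.98 to 7.44 in IRS-1 #20, against 6.74 to 7.04 in the clones labelled IRS-2. Whether these probe sets lie within the expressed cDNAs is not given in the sources used here, so they do not check the labels, and clones are named as labelled throughout. The 3'/5' log2 ratio of ACTB ranged from 0.04 to 0.27 over the arrays, and its group mean was lower with IGF-I than without in each clone at each time. Its part in the results was not tested.

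In medium without IGF-I, members already differed between clones, with IRS-1 #10 lowest for most. At 4 h, IRS-1 #10 had all 3 of its SFM arrays below all arrays of the other clones for 17 of 28 members (60.7%), against 10.7% of all probe sets and 26.5% of the 13459 probe sets at least as bright as the dimmest member. IRS-2 #1 was above all other clones without overlap for 13 members (46.4%, against 7.2% of all probe sets and 17.9% of bright ones). These clone levels are a description without a test, and in bulk RNA fewer cells with a transcript and less of it per cell cannot be told apart. MVD, which makes isopentenyl diphosphate, averaged 8.77 ± 0.107 for IRS-1 #10 and 9.18 ± 0.0525 for IRS-1 #20 at 4 h in SFM (SD, n = 3 arrays each). For IRS-2 #6 it averaged 9.71 ± 0.0815 and for IRS-2 #1 9.96 ± 0.0248, and no neighbours in this order overlapped. ELOVL6, which elongates palmitate, was lowest in IRS-1 #20, at 8.90, 8.88 and 9.23, and highest in IRS-2 #1, at 10.13, 10.25 and 10.20. At 24 h in SFM the counts were 11 members for IRS-1 #10 (39.3%, against 7.22% of all probe sets and 13.4% of bright ones) and 6 for IRS-2 #1 (21.4%, against 5.34% and 11.6%).

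Both clones labelled IRS-1 lay below both labelled IRS-2 without overlap for 8 members at 4 h (28.6%, against 10.1% of all probe sets and 20.7% of bright ones) and for 17 at 24 h (60.7%, against 11.2% and 25.8%). The opposite order held for 3 members at 4 h (10.7%, against 9.91% of all probe sets and 9.2% of bright ones), INSIG2, ACACA and FASN. At 24 h it held for INSIG2 and FASN (7.14%, against 10.3% of all probe sets and 6.85% of bright ones). The shares of members in this opposite order were thus near the background at both times. FASN, the fatty acid synthase, averaged 12.38 and 12.79 in IRS-1 #10 and IRS-1 #20 at 4 h in SFM, and 11.72 and 11.63 in IRS-2 #1 and IRS-2 #6. Its SDs reached 0.296, the widest spread being in IRS-1 #20, where the 3 arrays read 13.05, 12.85 and 12.47.

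After 4 h of IGF-I, a set of sterol pathway genes rose in both clones labelled IRS-2, whereas few members passed the test in the clones labelled IRS-1. In IRS-2 #1, 7 members rose and 0 fell (25% of 28, against 1.62% of all probe sets passing in either direction, 1.04% rising and 2.93% of bright ones rising). In IRS-2 #6, 8 rose and 0 fell (28.6%, against 2.35% of all probe sets, 1.36% rising and 3.3% of bright ones rising). The test was limma's moderated test in a fit of all 16 groups, with Benjamini-Hochberg adjusted p under 0.05 over all probe sets. The 7 members that rose in both IRS-2 clones were HMGCS1, SQLE, MSMO1, HSD17B7, SC5D, INSIG1 and STARD4, and 0.688% of all probe sets and 2.01% of bright ones rose in both. IDI1, the isomerase of isopentenyl diphosphate, rose besides in IRS-2 #6. Its next brightest probe set rose in both IRS-2 #1 and IRS-2 #6, by 0.21 and 0.26 (adjusted p = 0.000541 and 6.37e-06). Its dimmer probe sets differed by -0.24 to -0.09 in these clones and did not pass. In IRS-1 #10, HMGCS1 and SQLE rose and SREBF2 and SCAP fell (14.3% of members, against 1.81% of all probe sets and 4.59% of bright ones). In IRS-1 #20, SQLE rose and INSIG2 fell (7.14%, against 3.08% and 7.66%, a share at that of bright probe sets). The count in IRS-1 #10 went from 4 to 0 when the arrays of any 1 replicate letter were left out, and that in IRS-1 #20 from 2 to 5 without A, 0 without B and 1 without C. In IRS-2 #1 it went from 7 to between 3 and 5, with MSMO1 and SC5D past the test each time. In IRS-2 #6 it went from 8 to between 5 and 8, with HMGCS1, SQLE, MSMO1 and SC5D past it each time.

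**Figure D1:**
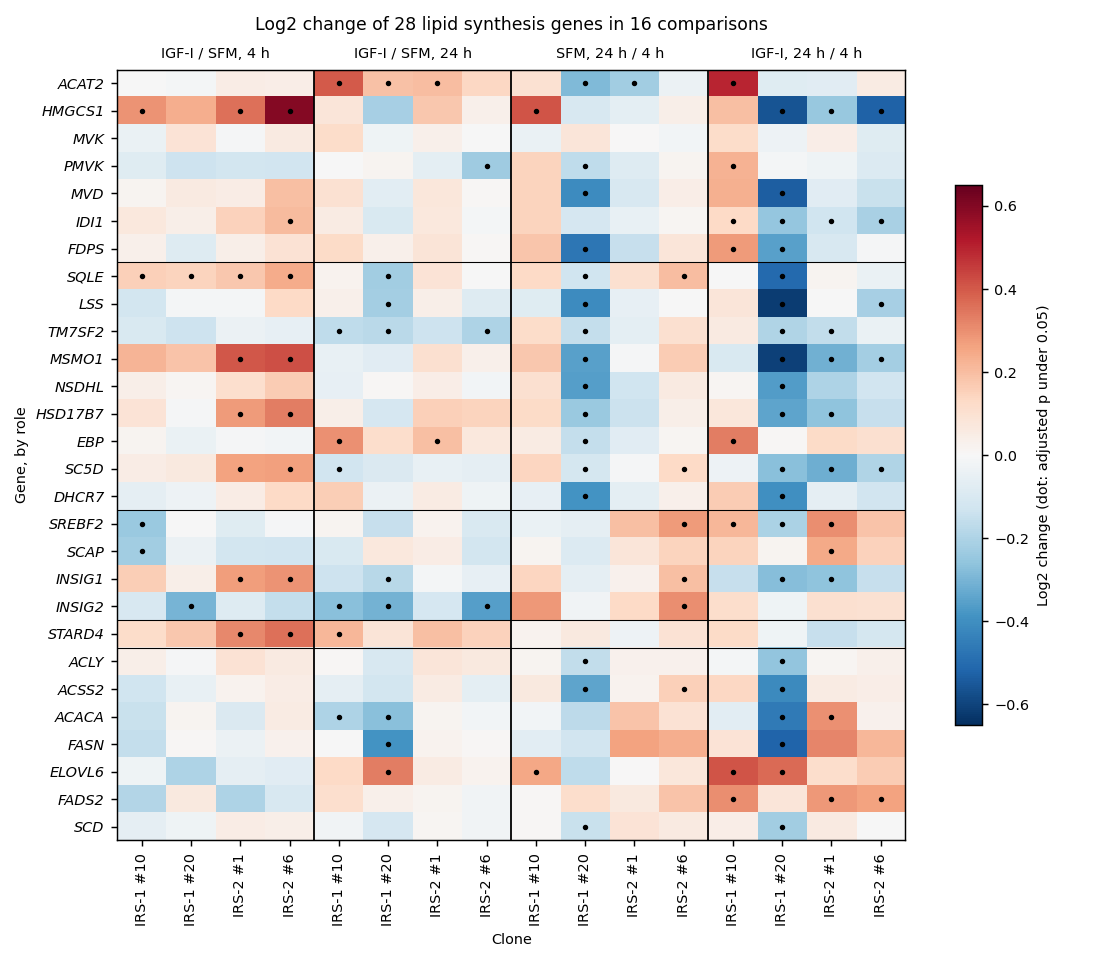
Log2 change of each of the 28 members (rows, grouped by role) in 16 comparisons of 2 groups of 3 arrays (columns, by clone within 4 blocks), with dots where the adjusted p is under 0.05. Dotted red cells gather in the 4 h block at HMGCS1, SQLE, MSMO1, HSD17B7, SC5D, INSIG1 and STARD4 for the IRS-2 clones, and dotted blue cells fill most of the IRS-1 #20 columns of both time blocks.

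HMGCS1, the cytosolic synthase that commits acetyl units to mevalonate, had the largest response to IGF-I of the members. In IRS-2 #6 at 4 h its log2 values were 10.57, 10.55 and 10.61 in SFM and 11.31, 11.03 and 11.17 with IGF-I. In IRS-2 #1 they were 10.90, 10.79 and 10.84 in SFM and 11.10, 11.35 and 11.14 with IGF-I. All IGF-I arrays of both clones lay above all their SFM arrays. The log2 change was 0.60 in IRS-2 #6 (SE 0.0737, 1.51-fold, limma adjusted p = 1.03e-07) and 0.36 in IRS-2 #1 (SE 0.0737, adjusted p = 0.00263).

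In IRS-1 #10, HMGCS1 read 9.94, 9.99 and 9.70 in SFM and 10.21, 10.20 and 10.09 with IGF-I, again without overlap, a change of 0.29 (adjusted p = 0.0225). In IRS-1 #20 it read 10.54, 10.50 and 10.78 in SFM and 10.90, 10.81 and 10.83 with IGF-I, where a change of 0.24 did not pass (adjusted p = 0.0627). The second HMGCS1 probe set changed by 0.44 and 0.48 in IRS-2 #1 and IRS-2 #6, past the test in each (adjusted p = 4.46e-06 and 2.94e-07). The change in IRS-2 #6 at 4 h was the only one past 1.5-fold among the members in any comparison of IGF-I with SFM, as were 0.223% of all probe sets in that clone.

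MSMO1, the sterol C4 methyl oxidase, read 11.63, 11.65 and 11.69 in SFM at 4 h in IRS-2 #6, and 12.06, 12.05 and 12.11 with IGF-I. In IRS-2 #1 it read 11.81, 11.95 and 11.81 in SFM and 12.20, 12.29 and 12.29 with IGF-I. The groups were well apart in both clones, and the changes were 0.42 and 0.40 (SE 0.0716 each, adjusted p = 9.6e-05 and 0.000266). In IRS-1 #10 and IRS-1 #20 the differences were 0.22 and 0.19 and did not pass (adjusted p = 0.105 and 0.163). In IRS-1 #10 the SFM array B read 10.66 against 11.10 and 11.09 for the other arrays of its group.

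SQLE, the squalene epoxidase and a rate-limiting step, was the 1 member that rose at 4 h in all 4 clones, as did 0.165% of all probe sets and 0.528% of bright ones. Its changes were small, at 0.16 in IRS-1 #10, 0.14 in the second IRS-1 clone, 0.17 in IRS-2 #1 and 0.24 in the second IRS-2 clone (SE 0.0409 each). In IRS-1 #20 its arrays read 11.99, 12.02 and 11.90 in SFM and 12.11, 12.12 and 12.11 with IGF-I. In IRS-2 #6 they read 12.12, 12.18 and 12.11 in SFM and 12.40, 12.39 and 12.34 with IGF-I, and the media did not overlap in either clone. Its second brightest probe set passed in 0 of the 4 clones, with differences from -0.06 to 0.18.

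SC5D, the lathosterol desaturase near the end of the pathway, rose by 0.26 in IRS-2 #1 and 0.27 in IRS-2 #6 at 4 h (SE 0.0402, adjusted p = 2.03e-05 and 9.15e-06). Its arrays in IRS-2 #6 read 12.24, 12.26 and 12.21 in SFM and 12.52, 12.52 and 12.47 with IGF-I. The differences in IRS-1 #10 and IRS-1 #20 were 0.05 and 0.06 and did not pass. The dimmer of the 2 SC5D probe sets did not rise in IRS-2 #1 or IRS-2 #6, with differences of 0.06 and -0.14 (adjusted p = 0.872 and 0.505), so the SC5D result rests on its brightest probe set.

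Among the regulators, INSIG1, which retains SCAP in the endoplasmic reticulum, read 12.08, 12.15 and 12.09 in SFM at 4 h in IRS-2 #1, and 12.36, 12.40 and 12.38 with IGF-I, without overlap. It rose by 0.27 there and by 0.29 in IRS-2 #6 (SE 0.0587 each). A further INSIG1 probe set rose by 0.22 and 0.31 in these clones, and the remaining one did not pass in either. STARD4, a cytosolic sterol carrier, read 8.99, 9.21 and 9.02 in SFM in IRS-2 #6 and 9.44, 9.38 and 9.49 with IGF-I. It rose by 0.31 and 0.36 in IRS-2 #1 and IRS-2 #6 (SE 0.0671 each), and HSD17B7, a keto-steroid reductase of the pathway, by 0.28 and 0.33 (SE 0.0642 each). The HSD17B7 probe set, like that of IDI1, is of the class that can bind related transcripts, so their signals may include near-identical copies. SREBF2 fell by 0.24 and SCAP fell by 0.23 in IRS-1 #10 (adjusted p = 0.0431 and 0.0187), and INSIG2 fell by 0.30 in IRS-1 #20 (adjusted p = 0.0241), from 8.93, 8.95 and 9.22 to 8.76, 8.82 and 8.61. The second SREBF2 probe set did not pass in IRS-1 #10 (-0.16, adjusted p = 0.346). The few members that fell in single clones at 4 h were regulators, but the falls in IRS-1 #10 did not pass when any 1 replicate letter was left out. In the mean of the 4 clones, given below, enzymes fell as well.

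**Figure D2:**
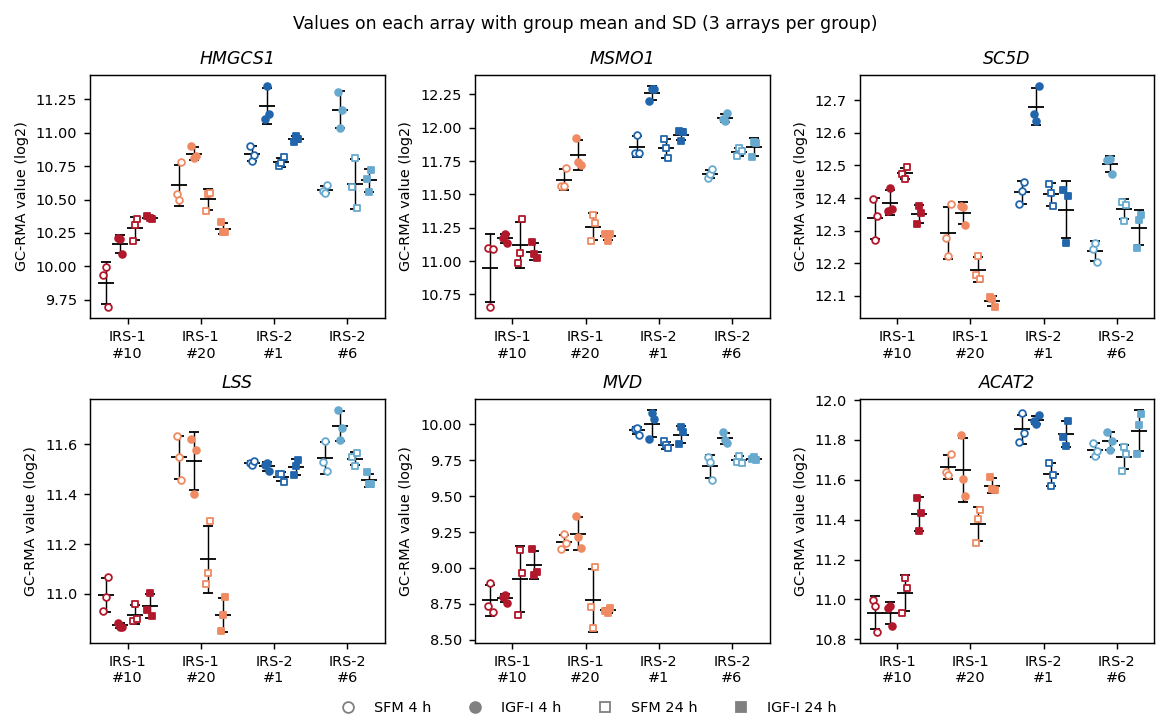
GC-RMA log2 value on each array (points) with the group mean and SD (bars, 3 arrays) for HMGCS1, MSMO1, SC5D, LSS, MVD and ACAT2, by clone, with open symbols for SFM, filled for IGF-I, circles for 4 h and squares for 24 h. The axes differ between genes and do not start at 0. HMGCS1 and MSMO1 peaked in the IGF-I 4 h arrays of both IRS-2 clones, and LSS and MVD were lower at 24 h than at 4 h in IRS-1 #20.

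Of the 7 measured genes of fatty acid synthesis, 0 passed limma's test at 4 h in any clone, with differences between -0.20 and 0.10. Between 1.62% and 3.08% of all probe sets passed in these comparisons, so a count of 0 among 7 genes is near the background. At an unadjusted p under 0.05, 6 of the 28 single tests of these genes passed, 1 of them higher. The share of all probe sets at that unadjusted threshold is not given here, so this count cannot be set against a background. The methods' t-test with a 1.5-fold threshold also gave 0. FASN differed by -0.16 in IRS-1 #10, and by 0.01, -0.04 and 0.03 in the other clones (SE 0.119 each). SCD, the stearoyl-CoA desaturase, differed by at most 0.06, and ACLY, the citrate lyase that supplies cytosolic acetyl-CoA, by at most 0.10.

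To set the members beside their regulatory sequence, RefSeq promoter windows of 250 bases before to 50 after the start site (GRCh38.p14) were searched on both strands. There were 36 windows of 25 of the 28 members, and SQLE, ACAT2 and FASN had no window. Counts are over all members with a window, not only over those that rose together. The CCAAT box (letters CCAAT), a site of NF-Y, which is known to act beside SREBP, occurred in 25 of 36 member windows (69.4%, against 34.6% of all 35116 windows). By gene it was present for 21 of 25 members (84%), against 39.7% of 27305 genes. A loose core of the sterol element, CACNCCAC, occurred in 7 windows (19.4%, against 5.87%), and the classical SRE-1 of 10 letters, which itself holds the loose core, in 1 window, that of SREBF2 (0.0456% of all windows). The GC box GGGCGG was in 32 windows (88.9%, against 45.0%). These backgrounds hold every gene with a window, while the members are bright. No share over genes as bright as the members is given here, so the excess cannot be called particular to this pathway. These are matches of letters and not sites shown to be bound. The stretches of 250 bases before the most upstream RefSeq start are shown for HMGCS1 and MSMO1, which responded most at 4 h, for SC5D, which differed between isoforms, and for INSIG1, a regulator whose stretch holds the loose core. Capitals mark CCAAT and CACNCCAC on either strand.
HMGCS1, chr5:43313413-43313662, minus strand: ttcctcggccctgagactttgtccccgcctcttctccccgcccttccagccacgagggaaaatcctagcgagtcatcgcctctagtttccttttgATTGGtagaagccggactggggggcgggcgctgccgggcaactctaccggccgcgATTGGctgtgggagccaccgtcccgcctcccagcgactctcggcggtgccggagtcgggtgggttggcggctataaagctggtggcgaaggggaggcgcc
MSMO1, chr4:165327419-165327668, plus strand: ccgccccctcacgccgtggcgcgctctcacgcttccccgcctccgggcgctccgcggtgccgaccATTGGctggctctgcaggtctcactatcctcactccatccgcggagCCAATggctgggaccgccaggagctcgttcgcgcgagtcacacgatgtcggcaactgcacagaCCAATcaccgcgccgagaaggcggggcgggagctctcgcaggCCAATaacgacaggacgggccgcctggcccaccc
SC5D, chr11:121292521-121292770, plus strand: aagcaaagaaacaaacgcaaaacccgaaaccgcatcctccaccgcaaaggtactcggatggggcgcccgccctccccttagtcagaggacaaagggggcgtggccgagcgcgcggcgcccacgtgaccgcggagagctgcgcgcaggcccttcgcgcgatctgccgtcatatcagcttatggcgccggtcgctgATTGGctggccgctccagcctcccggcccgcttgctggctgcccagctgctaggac
INSIG1, chr7:155297628-155297877, plus strand: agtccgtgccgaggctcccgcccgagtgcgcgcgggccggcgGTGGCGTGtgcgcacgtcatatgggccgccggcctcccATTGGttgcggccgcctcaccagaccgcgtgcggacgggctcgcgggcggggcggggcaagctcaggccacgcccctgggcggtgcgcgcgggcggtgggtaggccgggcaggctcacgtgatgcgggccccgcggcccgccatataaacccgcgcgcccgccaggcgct

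The HMGCS1 stretch held 2 CCAAT matches, 155 and 100 bases before the start. MSMO1 held 4, between 185 and 34 bases before its start, more than the other stretches shown. SC5D held 1 CCAAT match, 56 bases before its start, and INSIG1 held 1 at 170 bases and the loose core at 208 bases. The loose core was not among the letters of the other 3 stretches shown. SC5D was still among the 6 members with the loose core in a window, at a place outside its printed stretch.

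Whether the 4 h response differed between isoforms was tested directly, as the mean response of the clones labelled IRS-2 minus that of the clones labelled IRS-1. SC5D was the only member to pass (0.21, SE 0.0402, adjusted p = 0.0038), as did 0.26% of all probe sets, and its second probe set differed by 0.09 (adjusted p = 0.906). Without the arrays lettered A or C, SC5D did not pass (0.19 and 0.16, adjusted p = 0.206 and 0.646). HSD17B7 differed by 0.26 (95% interval 0.13 to 0.39, adjusted p = 0.0624), HMGCS1 by 0.21 (0.06 to 0.36, adjusted p = 0.461) and MSMO1 by 0.21 (0.06 to 0.35, adjusted p = 0.451). At an unadjusted p under 0.05, 11 members passed, against 6.46% of all probe sets, and the difference was positive for 25 of 28. The share of all probe sets with a positive difference is not given here, so the 25 cannot be set against a background. Bright probe sets past the adjusted p in this contrast were also mostly higher, at 0.617% against 0.0223% lower. The wider response in the IRS-2 clones was thus not shown to differ from that of the IRS-1 clones for members other than SC5D. At 24 h, 0 members passed in limma (0.476% of all probe sets), with 9 at an unadjusted p under 0.05 (8.39% of all probe sets).

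Averaged over the 4 clones at 4 h, 8 members rose and 4 fell (42.9% of members, against 12.7% of all probe sets and 28.5% of bright ones). The 8 were HMGCS1 (0.37, SE 0.0369), MSMO1 (0.31), STARD4 (0.24), INSIG1 (0.19), SQLE (0.18), HSD17B7 (0.17), SC5D (0.16) and IDI1 (0.12). The share of bright probe sets that rose was 9.18%. PMVK and TM7SF2, enzymes of the mevalonate and sterol steps, fell by 0.11 and 0.08, and SCAP and INSIG2 fell by 0.13 and 0.16. The second SC5D probe set averaged -0.08.

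After 24 h of IGF-I the members that moved were mostly others, and the genes that rose early in the IRS-2 clones did not pass there. In IRS-1 #10, 3 members rose and 4 fell (25%, against 8.01% of all probe sets and 19.6% of bright ones). IRS-1 #20 had 2 rises and 7 falls (32.1%, against 7.2% and 19.9%). For IRS-2 #1 the counts were 2 and 0 (7.14%, against 3.15% and 9.15%), and for IRS-2 #6 they were 0 and 3 (10.7%, against 3.84% and 9.69%). Of the 7 early genes, 0 passed as higher in an IRS-2 clone at 24 h. STARD4, 1 of them, still rose in IRS-1 #10, by 0.22 (adjusted p = 0.0326). It differed by 0.19 in IRS-2 #1 and 0.15 in IRS-2 #6, which did not pass. Averaged over the 4 clones, 4 members, STARD4 among them, rose and 5 fell (32.1%, against 16.5% of all probe sets and 39.3% of bright ones). The shares other than that of IRS-1 #20 were thus near or under those of bright probe sets. Leaving out 1 replicate letter gave 2 to 3 members in IRS-1 #10, 4 to 6 with clone IRS-1 #20, and 0 to 2 for either clone labelled IRS-2.

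ACAT2, the cytosolic thiolase that condenses acetyl-CoA, rose at 24 h in 3 clones after no change past the test at 4 h. In IRS-1 #10 it read 10.93, 11.11 and 11.06 in SFM and 11.51, 11.34 and 11.43 with IGF-I, without overlap. Its change was 0.40 there (SE 0.0587, adjusted p = 2.92e-06). IRS-1 #20 differed by 0.19 and IRS-2 #1 by 0.20 between the media, while a difference of 0.13 for IRS-2 #6 did not pass. EBP, the sterol isomerase, rose by 0.29 in IRS-1 #10 and 0.19 in IRS-2 #1 (SE 0.0463 each), and both its next brightest probe sets also rose in IRS-1 #10, by 0.28 and 0.26.

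ELOVL6 rose by 0.33 in IRS-1 #20 (SE 0.0661, adjusted p = 0.000454), from 8.76, 8.79 and 8.95 in SFM to 9.15, 9.21 and 9.14. In the same clone FASN fell by 0.39 (SE 0.119, adjusted p = 0.033), from 12.59, 12.51 and 12.91 to 12.01, 12.36 and 12.47. ACACA, the acetyl-CoA carboxylase that makes malonyl-CoA, fell by 0.20 for IRS-1 #10 and 0.27 for IRS-1 #20, but its second probe set rose by 0.20 in IRS-1 #10 (adjusted p = 0.0264) and read 0.17 higher in IRS-1 #20, so the direction for ACACA depends on the probe set. Genes of 1 branch thus moved in opposite directions in IRS-1 #20.

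INSIG2, the second protein that retains SCAP, was lower with IGF-I than in SFM at 24 h in 3 clones. In IRS-2 #6 it read 8.90, 8.98 and 8.82 in SFM and 8.50, 8.50 and 8.61 with IGF-I, a difference of -0.36 (SE 0.0803, adjusted p = 0.00397). In this clone INSIG2 rose in SFM between 4 h and 24 h, by 0.30. Its change over that time with IGF-I passed in 0 clones. The clones labelled IRS-1 differed by -0.27 and -0.31, which passed, and for IRS-2 #1 a difference of -0.11 did not. TM7SF2, a sterol reductase, fell in the same 3 clones, by 0.16 and 0.17 in those labelled IRS-1 and by 0.20 in IRS-2 #6. In IRS-1 #20, SQLE, LSS and INSIG1 fell by 0.23, 0.22 and 0.18 besides. The other INSIG1 probe sets differed by -0.05 and -0.07 and did not pass (adjusted p = 0.756 and 0.58). In the same clone the second probe set of HMGCS1 fell by 0.40 while the first differed by -0.22 and did not pass.

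Subtracting the 4 h response from the 24 h response, averaged over clones, 6 members were lower and 3 higher at 24 h (32.1%, against 8.97% of all probe sets and 22.6% of bright ones). The 6 were HMGCS1 (-0.35, SE 0.0521), MSMO1 (-0.30), INSIG1 (-0.29), SC5D (-0.24), SQLE (-0.21) and IDI1 (-0.11). The 3 were ELOVL6 (0.22), ACAT2 (0.21) and EBP (0.18). Among bright probe sets, 7.98% were lower and 14.6% higher. ACAT2 and HMGCS1, which catalyse successive steps, thus had opposite signs.

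**Figure D3:**
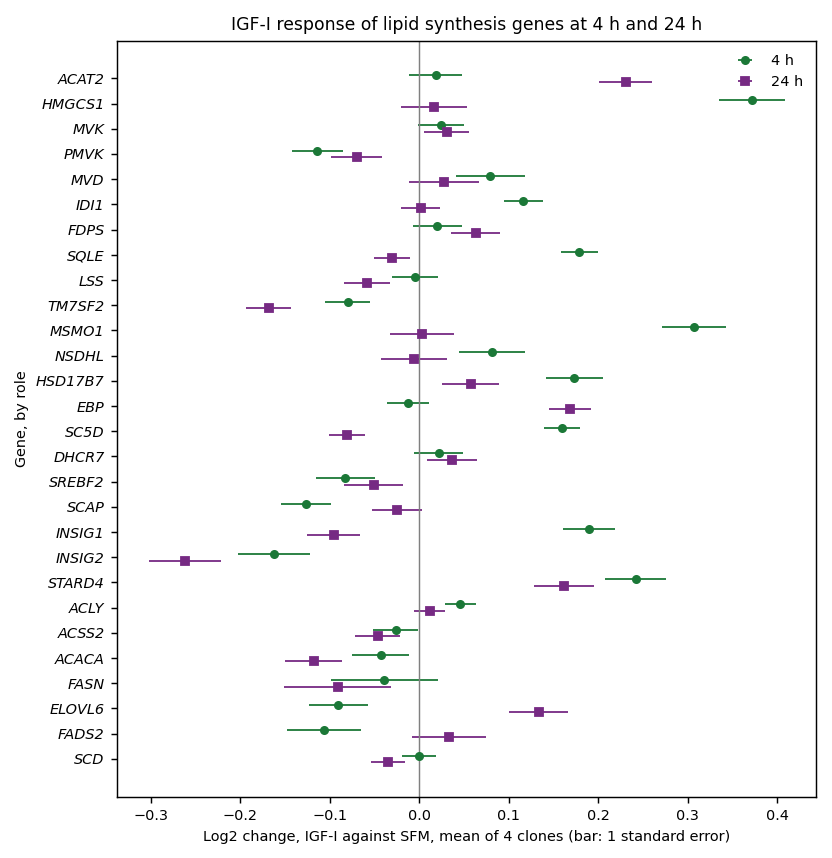
Log2 change with IGF-I, averaged over the 4 clones, at 4 h (green circles) and 24 h (purple squares) for each member, with bars of 1 standard error. HMGCS1 went from 0.37 at 4 h to 0.02 at 24 h, while ACAT2 went from 0.02 to 0.23.

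Members also differed between times in SFM. Between 4 h and 24 h in SFM, 16 members fell and 0 rose in IRS-1 #20 (57.1%, against 20.8% of all probe sets, 13.3% falling and 33.1% of bright ones falling). Only 5.74% of bright probe sets rose there. In IRS-2 #6, 6 rose and 0 fell (21.4%, against 12.8% of all probe sets, 7.95% rising and 21.6% of bright ones rising), a share at that of bright probe sets. In IRS-1 #10, HMGCS1 and ELOVL6 rose, by 0.41 and 0.25 (7.14%, against 1.83% of all probe sets and 5.29% of bright ones), and in IRS-2 #1 ACAT2 fell by 0.23 (3.57%, against 5.33% and 14.1%). The shares outside IRS-1 #20 were thus near or under those of bright probe sets. The 16 that fell in IRS-1 #20 held all 9 measured members of the sterol steps, 4 of 7 of the mevalonate steps and 3 of 7 fatty acid genes. FDPS, which makes farnesyl diphosphate, fell most, by 0.47 (SE 0.0555), from 12.16, 12.20 and 12.31 to 11.69, 11.76 and 11.80. Leaving out 1 replicate letter gave 10 to 13 members in IRS-1 #20 (10 without A), 3 to 4 in IRS-2 #6, 0 to 6 in IRS-1 #10 (6 without A, 0 without C) and 0 to 1 in IRS-2 #1.

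Over the same interval with IGF-I in IRS-1 #20, 19 members fell and 1 rose (71.4%, against 13.4% of all probe sets, 7.29% falling and 15.8% of bright ones falling), and 13 members fell in both the SFM and the IGF-I arrays of this clone, as did 10.97% of bright probe sets. The SFM arrays of 24 h also serve as controls of the 24 h IGF-I comparison, so these time changes and the IGF-I differences are not independent. Of the other clones, IRS-1 #10 had 8 rises and 0 falls (28.6%, against 8.58% of all probe sets and 19.2% of bright ones). IRS-2 #1 had 4 rises and 7 falls (39.3%, against 10% and 23.6%), and IRS-2 #6 had 1 rise and 5 falls (21.4%, against 10.6% and 26.2%). Leaving out 1 letter gave 17 to 20 members in IRS-1 #20, 3 to 5 in IRS-1 #10 and 6 to 7 in IRS-2 #1.

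LSS, the lanosterol synthase, read 11.62, 11.40 and 11.58 at 4 h with IGF-I in IRS-1 #20 and 10.85, 10.92 and 10.99 at 24 h. It fell by 0.62 (SE 0.0513, to 0.653 of the 4 h level, adjusted p = 3.46e-13), and both its other probe sets fell, by 0.53 and 0.65. In SFM it read 11.63, 11.55 and 11.46 at 4 h and 11.04, 11.08 and 11.29 at 24 h, a fall of 0.41 (adjusted p = 8.72e-08). The arrays did not overlap between times in either medium. In IRS-1 #10, LSS lay between 10.87 and 11.07 on every array.

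MSMO1 fell by 0.61 with IGF-I in IRS-1 #20 (SE 0.0716, adjusted p = 6.38e-09), from 11.92, 11.74 and 11.72 to 11.20, 11.15 and 11.21, and by 0.35 in SFM. HMGCS1 fell by 0.56 (adjusted p = 8.89e-08), from 10.90, 10.81 and 10.83 to 10.33, 10.26 and 10.26, and its second probe set fell by 0.81. In SFM the HMGCS1 difference was -0.10 and did not pass. LSS and MSMO1 were the 2 members past 1.5-fold here, as were 1.2% of all probe sets.

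MVD fell by 0.54 with IGF-I (SE 0.0775, adjusted p = 7.72e-07), from 9.36, 9.21 and 9.14 to 8.70, 8.69 and 8.72, and by 0.41 in SFM, from 9.13, 9.24 and 9.17 to 8.73, 8.58 and 9.01. FASN and SQLE fell by 0.52 and 0.50 with IGF-I, and ELOVL6 rose by 0.37 against the rest. In IRS-1 #10 the rises with IGF-I were led by ACAT2 (0.50), ELOVL6 (0.41) and EBP (0.33). In IRS-2 #1 and IRS-2 #6, HMGCS1 fell by 0.25 and 0.53, from the 4 h levels given above to 10.93, 10.97 and 10.96 and to 10.65, 10.56 and 10.72.

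The contrast of IRS-1 #20 with the mean of the other clones, over both media, was lower for 24 of 28 members (85.7%, against 27.4% of all probe sets passing, 15.1% lower and 36.7% of bright ones lower), at a median of -0.23 against 0.02 over all probe sets. Only 4.67% of bright probe sets were higher, so bright probe sets as a class lay lower in this contrast. Their median is not given here, and part of the members' median may be shared with them. FASN, MVD, LSS, FDPS and ACSS2 differed most, by -0.50, -0.49, -0.47, -0.46 and -0.46. The 4 members that did not pass were MVK, STARD4, ELOVL6 and FADS2. The clone was singled out after its values were seen.

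**Figure D4:**
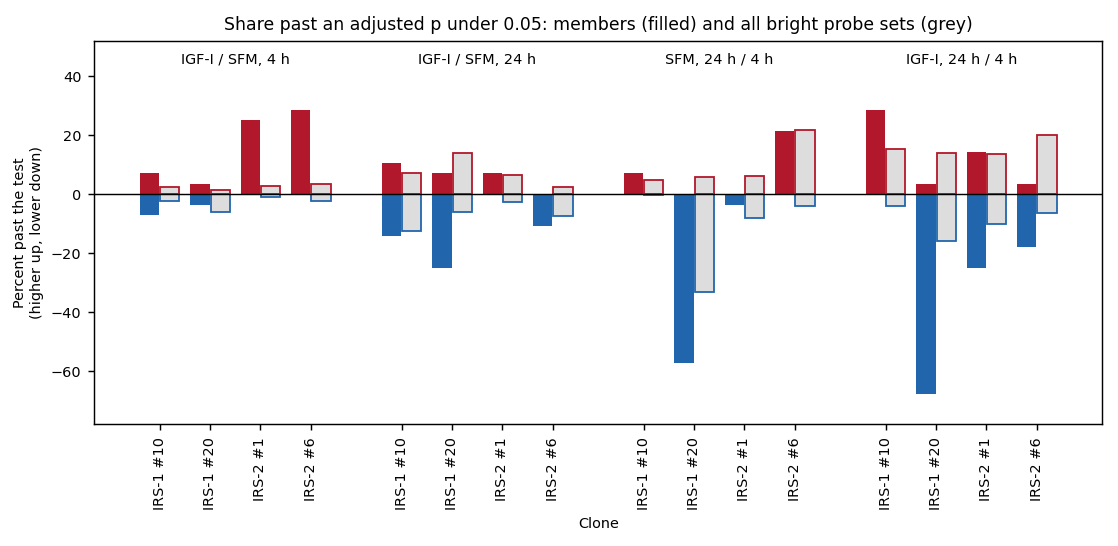
Percent of the 28 members (filled bars) and of the 13459 probe sets at least as bright as the dimmest member (grey bars) past an adjusted p under 0.05, rising above 0 and falling below it, in 16 comparisons grouped by kind and clone. Members exceeded the grey bars most in the rises of the IRS-2 clones at 4 h and in the falls of IRS-1 #20 over time.

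MVK, the mevalonate kinase, passed in 0 of the 16 comparisons of 2 groups and ranged from -0.08 to 0.12. Genes of neighbouring lipid pathways are given beside the 1.04% and 1.36% of all probe sets that rose at 4 h in IRS-2 #1 and IRS-2 #6, shares at which lists of this size hold few or no rises. The shares that fell in these 2 clones were 0.584% and 0.989% of all probe sets, and 0.877% and 2.19% of bright ones. Of 16 measured genes of sterol supply and sensing, 0 rose and 1 fell in each IRS-2 clone at 4 h. Of 25 measured genes of fatty acid handling, 0 rose in each, with 1 falling in IRS-2 #1 and 0 falling for IRS-2 #6. Of 16 measured genes of fatty acid oxidation, 0 rose and 1 fell in each. With IGF-I the cholesterol exporter gene ABCA1 fell past 1.5-fold at 4 h in IRS-1 #10 and IRS-1 #20, by 0.63 and 0.65. At 24 h it fell by 0.67 in the former. In IRS-1 #20 it also changed by -0.71 between 4 h and 24 h in SFM, without IGF-I. The shares of all probe sets lower past 1.5-fold were 0.0311% and 0.0568% at 4 h, 0.126% at 24 h and 0.584% over time in SFM. PDK4, a kinase that favours fatty acid oxidation, fell at 4 h, by 0.59 for IRS-1 #10 and by 0.65 for IRS-2 #1.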

How the data were processed

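RNA of 48 samples was hybridised to HG-U133 Plus 2.0 arrays, and per the labels and the study's methods the authors summarised probe sets by GC-RMA in GeneData Refiner, so the deposited values are log2 intensities. Its background step acts most on dim probe sets, and the members are bright. The version and chip definition are not given in the sources used here. There were 0 columns of other samples. Each gene was read from the brightest of its probe sets that carry a single symbol. limma 3.58.1 in R 4.3.3 fitted 54613 probe sets to 16 group means with an intensity trend, and p-values were adjusted by Benjamini-Hochberg over all of them, with a threshold of 0.05. A fold change of 1.5 was the methods' threshold. Depth has no counterpart on arrays, and 3 arrays a group limit the precision. Clone-to-clone variation does not enter the error term. The genes named are the members, with values for those that passed and for those the comparison turns on. Members, related lists and tests were chosen with earlier results of these data known. Contrasts over 4 clones, the contrast of IRS-1 #20 with the others, the bright background and the looser sterol motif were added after seeing the data. Alternatives were quantile normalization, median centring, normexp, a filter on dim probe sets, no trend, only the arrays compared, means of probe sets, second probe sets, the methods' t-test, a block on the replicate letter and leaving out each letter. Figures used matplotlib 3.10.9.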

Additional observations from a re-analysis of the deposited data

Results flagged for a closer look

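Direct contrasts asked directly whether an effect differed between isoforms, times or clones, and the members that passed limma's test of such a difference are given here as log2 values. SC5D differed between the isoforms' responses at 4 h, higher in the clones labelled IRS-2 by 0.21 (adjusted p = 0.0038), on its brightest probe set. It did not pass with the mean of its probe sets (0.15, adjusted p = 0.11).

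The response to IGF-I differed between 24 h and 4 h for 9 members, with adjusted p from 1.29e-08 to 0.0104. It was higher at 24 h for ACAT2 (0.21), EBP (0.18) and ELOVL6 (0.22). It was lower for HMGCS1 (-0.35), MSMO1 (-0.30), INSIG1 (-0.29), SC5D (-0.24), SQLE (-0.21) and IDI1 (-0.11).

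The change over time in IRS-1 #20, over both media, lay below the mean of the other clones for 24 members, with adjusted p from 1.3e-11 to 0.0457. Of all probe sets 27.4% passed and 15.1% were lower, and 36.7% of bright ones were lower and 4.67% higher. The clone was singled out after its values were seen, so these p-values come from the same values that picked it. Among the mevalonate steps the differences were -0.23 for ACAT2, -0.30 for HMGCS1, -0.12 for PMVK, -0.49 for MVD, -0.16 for IDI1 and -0.46 for FDPS. Among the sterol steps they were -0.39 for SQLE, -0.47 for LSS, -0.18 for TM7SF2, -0.43 for MSMO1, -0.31 for NSDHL, -0.24 for HSD17B7, -0.17 for EBP, -0.14 for SC5D and -0.38 for DHCR7. Among the regulators they were -0.32 for SREBF2, -0.17 for SCAP, -0.14 for INSIG1 and -0.20 for INSIG2. Among the fatty acid genes they were -0.22 for ACLY, -0.46 for ACSS2, -0.40 for ACACA, -0.50 for FASN and -0.23 for SCD.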

How the results depend on the processing

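A 1.5-fold threshold on top of the adjusted p, or the methods' t-test at unadjusted p with that threshold, left 0 members in each comparison of 2 groups except 1 in IRS-2 #6 at 4 h (IGF-I against SFM) and 2 in IRS-1 #20 over time with IGF-I. The threshold also left 0 in the isoform difference at 4 h, the difference between times, both means of 4 clones and the contrast of IRS-1 #20 with the others. Median centring and a fit without an intensity trend gave 0 and 1 members in place of 4 for IGF-I in IRS-1 #10 at 4 h. Both gave 1 in place of 2 in IRS-1 #20 at 4 h, 4 in place of 7 in IRS-1 #10 at 24 h, 5 in place of 9 in IRS-1 #20 at 24 h, 1 in place of 2 in IRS-2 #1 at 24 h and 1 in place of 2 over time in SFM in IRS-1 #10. Fitting only the arrays compared gave 0 in each IRS-1 clone at 4 h, 6 in IRS-2 #1 at 24 h, 0 and 6 over time in SFM in IRS-1 #10 and IRS-2 #1, and 1 in the isoform difference at 24 h. Quantile normalization gave 5 and 16 in IRS-1 #20 at 4 h and 24 h, 10, 5 and 3 over time in SFM in IRS-1 #20, IRS-2 #1 and IRS-2 #6, 11 over time with IGF-I in IRS-2 #6 and 2 in the isoform difference at 24 h. Means of a gene's probe sets gave 2 in IRS-1 #10 at 4 h, 3 over time in SFM in IRS-2 #1 and 2 in the isoform difference at 4 h. SC5D was not among those 2 (0.15, limma adjusted p = 0.11).

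Leaving out 1 replicate letter gave, for IGF-I at 4 h, 0 to 0 in IRS-1 #10, 0 to 5 in IRS-1 #20, 3 to 5 in IRS-2 #1 and 5 to 8 in IRS-2 #6. At 24 h it gave 2 to 3, 4 to 6, 0 to 2 and 0 to 2 in the same order. Over time in SFM it gave 0 to 6, 10 to 13, 0 to 1 and 3 to 4. Over time with IGF-I it gave 3 to 5 in IRS-1 #10 and 6 to 7 in IRS-2 #1, and for the isoform difference at 4 h 0 to 1. Mean contrasts at 4 h gave 8 to 13. With fewer arrays the test has less power.

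Same-letter arrays did not deviate together in all 3 letters in any of 16 pairs of groups (correlation over 0.1). Correlations of single letters ranged from -0.444 (B, IGF-I against SFM in IRS-2 #6 at 4 h) to 0.302 (B, the same in IRS-1 #20). The rule asks for all 3 letters at once, so a link within 1 letter was not tested. The replicate block gave 1 member in place of 2 in IRS-2 #1 at 24 h and moved no other count by over 1.5 times. It kept 163 of the 167 called member values past the test.

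Direction turned with other probe sets. For ACACA at 24 h the mean of probe sets gave 0.00315 in IRS-1 #10 and 0.00859 over 4 clones, and the second probe set gave 0.205 in IRS-1 #10, 0.174 in IRS-1 #20 and 0.135 over 4 clones. The second SC5D probe set gave -0.137 in IRS-2 #6 and -0.0841 over 4 clones at 4 h, 0.0575 over time in SFM in IRS-1 #20 and 0.192 over time with IGF-I in IRS-2 #6. Second probe sets gave -0.0635 for SQLE in IRS-1 #10 at 4 h, 0.00365 for SREBF2 over time with IGF-I in IRS-1 #20, and 0.0112 for LSS and -0.0937 for FADS2 over time with IGF-I in IRS-2 #6. Apart from choices of probe set, 0 directions turned. The cause of these shifts was not tested.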
